A study of Mus musculus with 9 samples.

Results

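Glycolysis and the glucose uptake that feeds it were followed through 10 genes chosen by name: the glucose transporter Slc2a1 and the enzymes Hk2, Pfkl, Aldoa, Tpi1, Gapdh, Pgk1, Eno1, Pkm and Ldha. All 10 were among the 16299 genes of the deposited table. The cells were melanocytes, skin pigment cells purified from mouse epidermis by fluorescence sorting, and their RNA was sequenced in 9 libraries. Control tail (3 libraries) came from tail epidermis of Spry1flox/flox mice, in which Spry1, encoding an inhibitor of receptor tyrosine kinase signalling, is flanked by loxP sites on both copies. Knockout tail (3 libraries) and knockout back (3 libraries) came from tail and back epidermis of Spry1flox/flox mice that also carry k14-Cre-ERT2, a Cre recombinase that tamoxifen activates, under the keratin 14 promoter. That promoter drives expression in basal keratinocytes, which surround the melanocytes; the cells sequenced are not its target. The floxed alleles are common to all groups, and no group is back epidermis without Cre, so knockout back differs from knockout tail by body site and from control tail by body site and Cre together. Age, sex, tamoxifen dosing and whether replicates are separate animals are not in the labels, so p-values cover only how far these samples vary, part of which may be technical.

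Glycolysis splits glucose into pyruvate in the cytosol and yields ATP and NADH, and lactate dehydrogenase turns pyruvate into lactate to return NAD. Glucose enters through facilitative carriers, is trapped as glucose 6-phosphate by hexokinase, and is committed to the pathway by phosphofructokinase, the main point of control. Several steps have more than 1 isoenzyme, and the mix differs between tissues. In melanocytes and melanoma cells MITF-driven pigment programmes, growth factor signalling and HIF1 are known to bear on glucose use.

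The sorted cells carried melanocyte transcripts at the top of the table: Pmel, Dct, Tyr, Tyrp1 and Mlana lay between 17.51 and 20.95 on the deposited log2 scale in all 9 libraries, and Mitf and Sox10 between 13.07 and 14.79. Recovered totals were 45.3 M to 67 M counts per library. The third library of each knockout group makes up a smaller set, whose values had been aligned before deposit with those of the other 7 libraries (the larger set), with no allowance for group. Genes at 0 counts numbered 4628 in the first and 6127 in the second knockout back library, where no other library had more than 1739. Normalised counts of Spry1 were 1510, 1074 and 1285 in control tail, then 3590, 1758 and 587 in knockout tail, then 2283, 0 and 746 in knockout back; they overlap, and a count per gene in melanocytes is no check of a deletion in keratinocytes. The melanocyte sum (4 of 7 markers with recovered counts) ran from 497772 to 522689 in control tail and 539023 to 635771 in knockout tail. In knockout back it was 657454 to 807226, above every tail library. Summed counts of other cell types differed as well. The basal keratinocyte sum (6 of 6 markers in the table) ran from 37735 to 99260 in control tail, 11397 to 323946 in knockout tail and 38676 to 189621 in knockout back. Trp63 was at 0 in at least 1 control tail library, and Itgb4 and Trp63 in at least 1 knockout back library. The differentiated keratinocyte sum (7 of 7 markers) was 32379 to 122232, 17524 to 178133 and 73325 to 259787. Lor and Flg were at 0 in at least 1 knockout tail library, and Krt1 and Flg in at least 1 knockout back library. For Langerhans and myeloid markers (6 of 7 in the table, Cd207 not analysed here) the sum was 138 to 476, 502 to 9054 and 7146 to 21163. H2-Aa, H2-Ab1 and Ptprc were at 0 in at least 1 control tail library. So were H2-Aa, Ptprc and Adgre1 in at least 1 knockout tail library, and Ptprc and Adgre1 in at least 1 knockout back library. The Schwann sum (3 of 4 markers) was 7258 to 13446, 7664 to 13558 and 19289 to 47156, with Prx at 0 in at least 1 library of each group. In bulk libraries fewer cells of a type and less RNA per cell cannot be told apart.

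Aldolase and the late steps were the most abundant of the pathway. Levels between genes are compared as normalised count per kilobase of exon, averaged over 9 libraries. Exon length counts every base in an exon of any annotated transcript of the gene. It can exceed the length of a single transcript, which lowers the value of such a gene. Aldoa, aldolase A, stood at 49182 per kilobase and ranked 42 of 15393 genes, followed by Eno1, enolase, at 25603 (rank 103), Ldha, lactate dehydrogenase A, at 22217 (rank 123) and Pkm, pyruvate kinase, at 19638 (rank 144). Tpi1, triose phosphate isomerase, had 8676 and Pgk1, phosphoglycerate kinase, 7435. The uptake and entry steps were lower: Slc2a1, the GLUT1 transporter, had 1249 per kilobase, Pfkl, the liver-type phosphofructokinase, 997, and Hk2, hexokinase 2, 773. Gapdh, glyceraldehyde 3-phosphate dehydrogenase, had 969, a level that rows of other genes sharing its sequence bear on, as described with that gene. Aldoa exceeded Eno1 in 9 of 9 libraries, Pkm exceeded Tpi1 in 9 of 9 and Pgk1 exceeded Slc2a1 in 9 of 9. The other neighbours in this order changed places in at least 2 libraries, and Pfkl exceeded Gapdh in only 2 of 9, although its mean was 1.03 times that of Gapdh. The order of the group means was not the same in each group. In knockout back Ldha (17989) and Pkm (16893) stood above Eno1 (16288), and Pfkl (1820) above Slc2a1 (1404). Pfkl was the lowest member in control tail (534, against 545 for Hk2) and in knockout tail (635, against 687 for Gapdh). Before division by length, the mean of Hk2 (3254) lay below that of Pfkl (3567) in control tail. So did that of Gapdh (2839 against 4240) in knockout tail. Pgk1 exceeded Tpi1 in control tail (9090 against 7556).

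**Figure D1:**
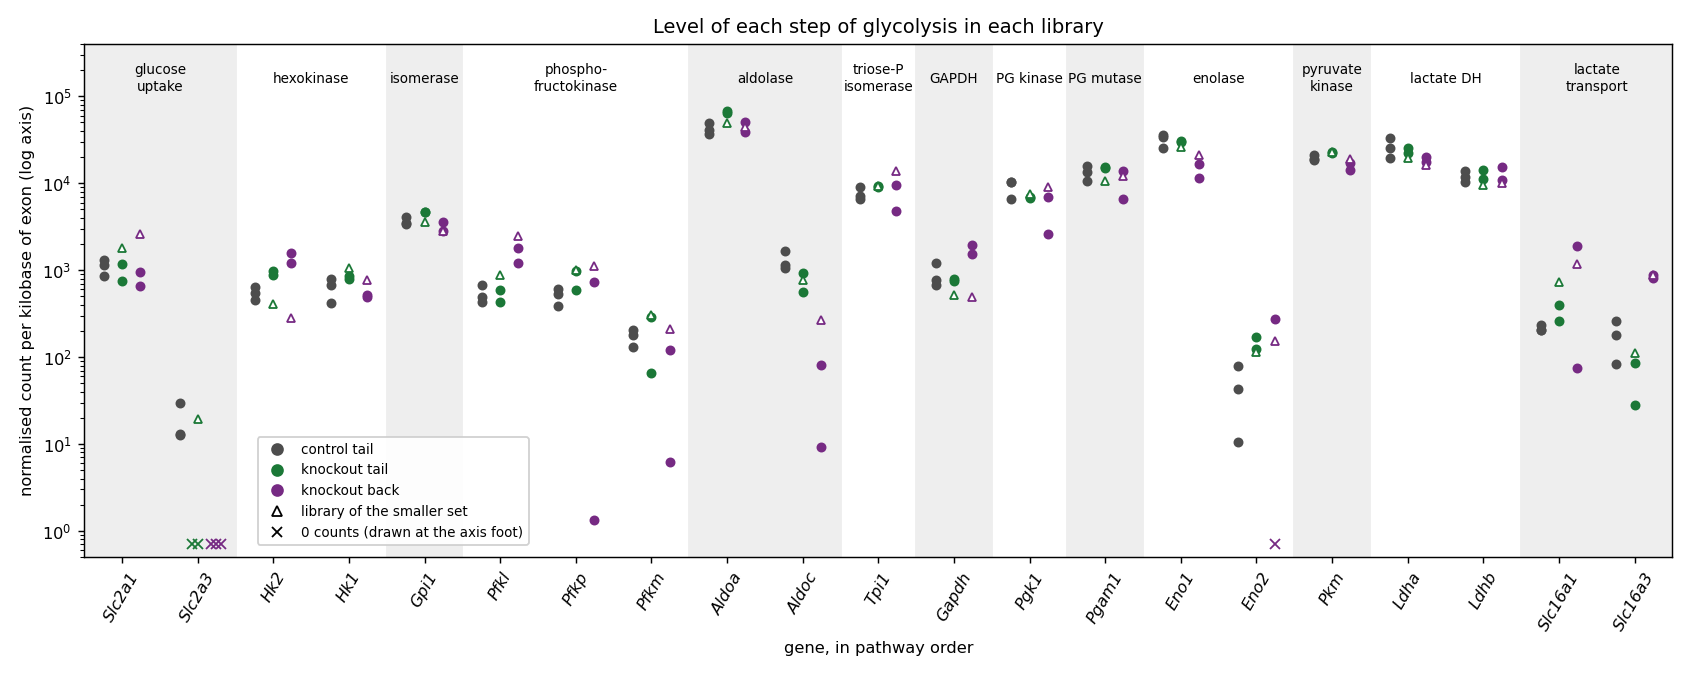
Normalised count per kilobase of exon (log axis) for the 10 genes and 11 related genes in pathway order; each symbol is 1 library, coloured by group, with open triangles for the third library of each knockout group and crosses for 0 counts. Aldoa, Eno1, Pkm and Ldha have the highest group means, and Slc2a1, Hk2 and Pfkl lie lower.

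Between control and knockout tail no member passed the test, and between tail and back 1 did. In knockout tail Aldoa and Hk2 had the largest positive differences, and neither passed. In knockout back Pfkl was higher than in knockout tail, while Eno1 and Pkm lay below every knockout tail library without passing. Differences below are log2 differences of the deposited values, with limma's standard error (SE) and a p-value adjusted over all 16299 genes by Benjamini-Hochberg (threshold 0.05). The smaller set holds only knockout libraries. Aligning the sets can thus take out part of a difference from control tail or add to it, and how much it changed was not tested. In knockout back versus control tail, Pfkl was 1.28 on these values and 1.75 in limma-voom on recovered counts. Hk2 was 0.93 and 0.52. For knockout tail versus control tail 0% of all genes were called, and 814 genes (4.99%) had an unadjusted p under 0.05, as did 2 of the 10 members. Limma called 1.5% of genes for knockout back versus knockout tail, 0.411% as higher and 1.09% as lower; the member called was among the higher. There, 3474 genes (21.3%) and 4 members had an unadjusted p under 0.05. Knockout back versus control tail had 1% of genes called and no member; at an unadjusted p under 0.05 there were 4255 genes (26.1%) and 3 members. The comparisons share groups: knockout tail and control tail each enter 2 of the 3, as does knockout back. Over the 10 members the median difference was -0.04, -0.21 and -0.12 in the 3 comparisons as ordered above, beside -0.05, -0.18 and -0.23 over all genes. Signs were mixed: 4, 4 and 5 of the 10 members were positive, beside 44.4%, 36.7% and 33.7% of all genes.

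**Figure D2:**
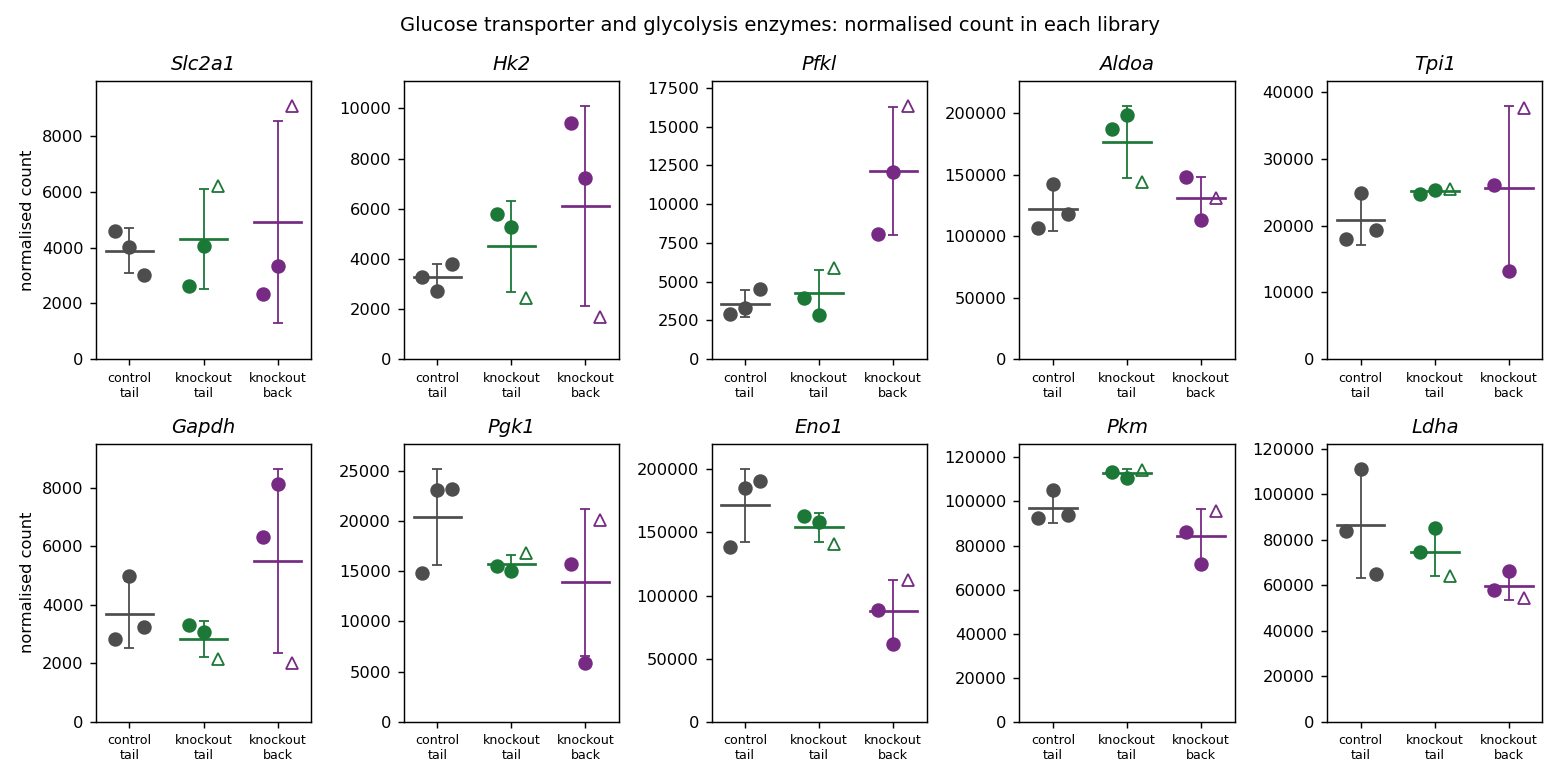
Normalised count of each gene in each library, with the group mean (line) and SD (bar, n = 3); open triangles mark the third library of each knockout group. Pfkl in knockout back lies above both tail groups and Eno1 below both, while Slc2a1 and Hk2 separate by library set within the knockout groups.

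**Figure D3:**
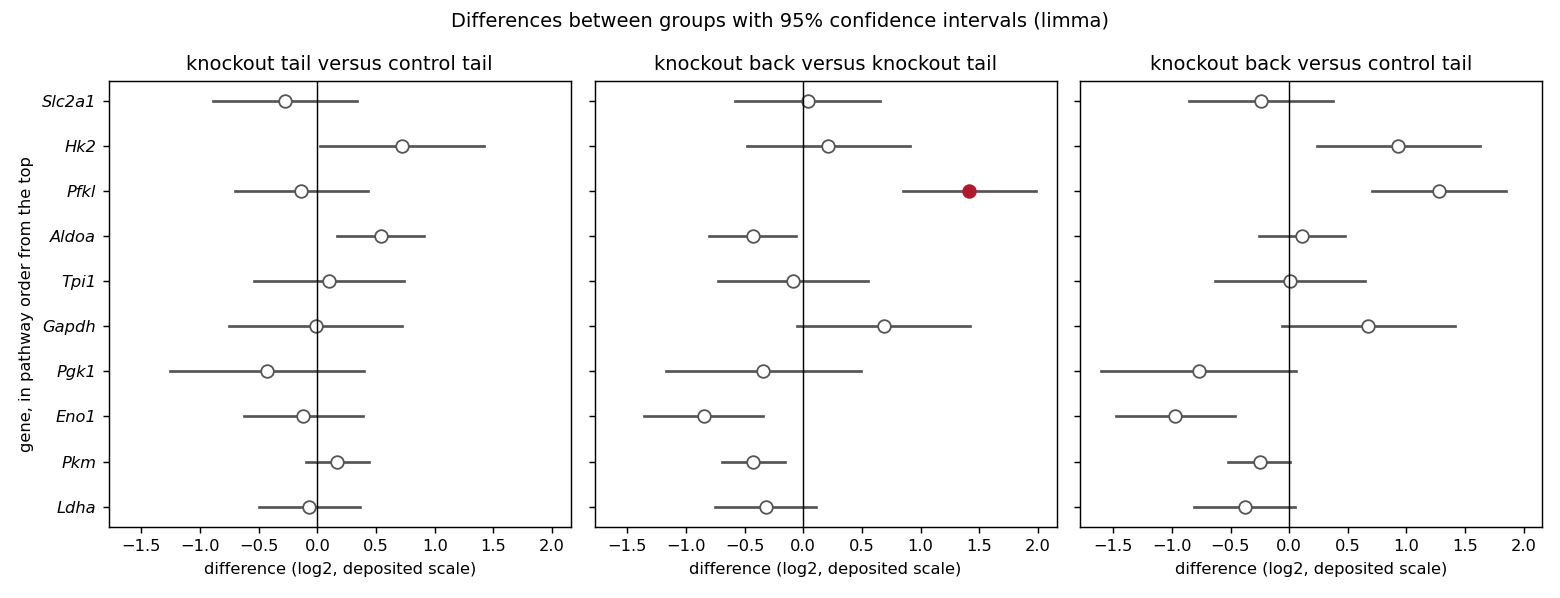
Difference of each gene in each comparison on the deposited log2 scale, with its 95% confidence interval from limma; the filled symbol is the 1 difference with an adjusted p under 0.05. Pfkl in knockout back versus knockout tail, at 1.41, is that difference.

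Transcripts of the glucose carrier Slc2a1 (chr4:119108711-119137983, plus strand) did not separate the groups. Its normalised counts were 4616, 4043 and 3037 in control tail, then 2638, 4079 and 6231 in knockout tail, then 2321, 3357 and 9085 in knockout back. All groups overlap, and in each knockout group the third library is the highest. Differences were -0.28 (SE 0.27), 0.04 (SE 0.27) and -0.24 (SE 0.27) for knockout tail versus control tail, knockout back versus knockout tail and knockout back versus control tail, with adjusted p of 1, 0.95 and 0.61. With recovered counts in limma-voom, where the alignment between sets is not applied, the first and the last turned to 0.01 and 0.15; with the 7 libraries of the larger set alone the second was -0.20. The third library of each knockout group also had a high basal keratinocyte sum, 323946 and 189621 against at most 119004 elsewhere. Its differentiated keratinocyte sum was 178133 in knockout tail but 74392 in knockout back, against 259787 in the second knockout back library. The part of either sum in the Slc2a1 values was not tested. Slc2a3, the GLUT3 transporter, was scarce, with 91, 212 and 95 in control tail, then 0, 0 and 139 in knockout tail, and 0 in every knockout back library. Slc2a3 differed by -1.03 (SE 0.27, adjusted p = 0.063) in knockout back versus control tail and did not pass. Slc2a6, a lysosomal member of the carrier family, was the 1 glucose carrier called among those listed. Slc2a6 had 1784, 1792 and 904 in control tail, then 2373, 1759 and 1686 in knockout tail, but 0, 5 and 0 in knockout back. It fell by 3.18 on the log2 scale against knockout tail (adjusted p = 0.021) and fell by 2.63 against control tail (adjusted p = 0.036), and the back libraries do not overlap the tail libraries. Of 16 other settings 9 kept the first call and 8 the second. The first and second back libraries also have the most genes at 0, 4628 and 6127, against 1471 in the third; the part of this in the Slc2a6 values was not tested.

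Hexokinase 2, which binds mitochondria and serves cells with high glucose use, separated by library set. Hk2 (chr6:82725025-82774454, minus strand) had 3274, 2708 and 3779 in control tail, then 5803, 5255 and 2422 in knockout tail, then 9413, 7204 and 1673 in knockout back. Among the 7 libraries of the larger set every knockout back value exceeded every knockout tail value, which exceeded every control value; the third library of each knockout group was among the 2 lowest of all 9. On the deposited scale these 2 libraries stand at 12.07 and 11.63, above the control range of 11.08 to 11.50, since a set shift of -1.12 had been removed for this gene. On the deposited values Hk2 differed by 0.72 (SE 0.31; adjusted p = 0.98) in knockout tail and by 0.93 (SE 0.31; adjusted p = 0.10) in knockout back versus control tail. With the 7 libraries of the larger set alone the latter was 1.23, with an adjusted p of 0.036, a setting chosen after seeing the data. Knockout back versus knockout tail gave 0.21 (SE 0.31; adjusted p = 0.73). Hk1, the hexokinase of most tissues, had 6780, 3541 and 5753 in control tail, then 6713, 7406 and 9122 in knockout tail, then 4185, 4430 and 6618 in knockout back. Hk2 as a share of Hk1 plus Hk2 per kilobase was 40.8%, 52.2% and 48.4% in control tail, then 55.3%, 50.4% and 27.5% in knockout tail, then 76.3%, 69.9% and 26.5% in knockout back. These shares overlap between all groups.

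Gpi1, the isomerase between hexokinase and phosphofructokinase, varied little, from 18096 to 30493 over the 9 libraries. Its differences were 0.31 in knockout tail versus control tail (adjusted p = 1) and -0.47 in knockout back versus knockout tail (adjusted p = 0.12).

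Phosphofructokinase, the committed step, held the 1 member called, higher in back than in tail. Pfkl (chr10:77986947-78010083, minus strand) encodes the liver-type subunit. Its normalised counts were 2882, 3265 and 4553 in control tail, then 3971, 2876 and 5874 in knockout tail, then 8067, 12061 and 16323 in knockout back. Every knockout back library exceeds every tail library, and this holds within the larger set (8067 and 12061 against 2876 to 4553) and within the smaller set (16323 against 5874). Group means were 3567 ± 875, 4240 ± 1517 and 12150 ± 4129 (SD, n = 3), so knockout back was 2.87 times knockout tail. Pfkl rose by 1.41 (SE 0.25; 95% confidence interval 0.85 to 1.98; adjusted p = 0.039) against knockout tail. Against control tail the difference was 1.28 (SE 0.25; interval 0.71 to 1.85), with an adjusted p of 0.053. In the 17 other settings the first had an adjusted p of 0.02 to 0.31 and passed in 6, and the second 0.019 to 0.43 and passed in 7; all kept the positive sign. With a second term for library set the adjusted p were 0.067 and 0.044, and leaving out any single library of the 2 groups, other than the third knockout back, ended the first call. Control and knockout tail differed by -0.14 (SE 0.25; adjusted p = 1). The myeloid and Schwann sums were also higher in knockout back, as given above, and their part in the Pfkl difference was not tested.

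Sequence before an annotated start is shown for Pfkl because it is the member with a called difference, and for Eno1 because it had the largest difference of negative sign in knockout back. Both stretches are from RefSeq on GRCm38.p6, 5′ to 3′ on the strand of the gene, and end at the base before a RefSeq start; they were taken from the 250 bases before it and trimmed to bases outside GENCODE exons. That of Pfkl precedes the start at 78009807, where 1 of 8 GENCODE transcripts also begins, but it is intronic in 1 other GENCODE transcript, which begins upstream at 78010083, the outer end of the gene as given above. Capitals mark the core letters of the HIF1 binding element, ACGTG or GCGTG, searched on both strands.
Pfkl, chr10:78009808-78010004, minus strand: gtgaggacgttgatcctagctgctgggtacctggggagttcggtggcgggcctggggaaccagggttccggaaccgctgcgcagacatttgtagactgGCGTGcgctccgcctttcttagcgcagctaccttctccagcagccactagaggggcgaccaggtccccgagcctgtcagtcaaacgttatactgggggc
Eno1, chr4:150236458-150236707, plus strand: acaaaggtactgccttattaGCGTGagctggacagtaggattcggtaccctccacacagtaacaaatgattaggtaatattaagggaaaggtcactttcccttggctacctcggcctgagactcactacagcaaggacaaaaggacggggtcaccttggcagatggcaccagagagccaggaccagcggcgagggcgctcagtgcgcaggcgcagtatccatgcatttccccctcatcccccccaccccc
Each stretch holds 1 GCGTG. Eno1 has 2 other RefSeq start windows, with 245 and 250 of their 250 bases in exons and 2 GCGTG in each. Of all 32851 windows of 250 bases before a start, 38.6% hold ACGTG or GCGTG and 6.02% the E-box CACGTG, which overlaps ACGTG. Among the members 9 of 10 genes hold ACGTG or GCGTG in at least 1 of their windows (16 windows in all, so genes with several have more chances), and 1, Ldha, holds CACGTG. A match describes the letters and is not a bound site.

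The other phosphofructokinase subunits overlapped between knockout tail and knockout back. Pfkp, the platelet type, had 5183, 8229 and 7095 in control tail, then 13113, 7904 and 13310 in knockout tail, then 9678, 18 and 14791 in knockout back. Pfkm, the muscle type, had 442, 605 and 688, then 958, 220 and 1012, then 400, 21 and 703 in the same order. Both are nearly missing from the second knockout back library, which has the most genes at 0. Pfkl made up 45.4%, 38.1% and 48.1% of phosphofructokinase per kilobase in control tail, then 32%, 39.7% and 40.4% in knockout tail, then 58.9%, 99.6% and 65% in knockout back. These shares depend on the exon lengths used, 6675 bases for Pfkl, 13401 for Pfkp and 3340 for Pfkm. Before division, the Pfkp mean exceeded that of Pfkl in control tail (6835 against 3567) and knockout tail (11442 against 4240). In knockout back it was lower (8162 against 12150). The back shares do not overlap the tail shares; the exact two-sided permutation test gave p = 0.1, the smallest that 3 against 3 libraries allow, and 0.19 after adjustment over 15 share comparisons.

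Aldolase and triose phosphate isomerase follow. Aldoa (chr7:126795234-126800751, minus strand) had 106868, 142034 and 117701 in control tail, then 187178, 198916 and 143854 in knockout tail, then 148043, 113176 and 130750 in knockout back. Every knockout tail library exceeds every control library, the closest pair being 143854 and 142034, and the back values overlap both. Means were 122201 ± 18009, 176649 ± 29002 and 130656 ± 17434 (SD, n = 3). The difference of knockout tail from control tail was 0.54 (SE 0.16; 95% interval 0.17 to 0.91), with an unadjusted p of 0.0097 and an adjusted p of 0.70. For knockout back versus knockout tail it was -0.43 (SE 0.16; adjusted p = 0.18), and for knockout back versus control tail 0.11 (SE 0.16; adjusted p = 0.70). Aldoa and Pkm were the 2 members whose normalised counts in knockout tail lay above all control libraries, where 9.7% of all genes did so; none lay below them all, as 9.31% of all genes did. The 2 knockout tail libraries with the highest Aldoa also had the highest erythroid sums (5 of 5 markers in the table), 84023 and 105763. The third had 2471 and control tail 632 to 9216. Alas2 was at 0 in at least 1 knockout tail library, and Hbb-bt and Alas2 in at least 1 control tail library. The part of these sums in the Aldoa values was not tested. GENCODE gives the name Aldoa to a second, adjacent gene model, and the table has 1 row.

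Aldoc, the brain-type aldolase, was lowest in knockout back. It had 3723, 5432 and 3492 in control tail, then 1841, 2996 and 2540 in knockout tail, then 267, 30 and 879 in knockout back. The 3 groups do not overlap, and the means were 4216 ± 1060, 2459 ± 582 and 392 ± 438 (SD, n = 3). Aldoc fell by 2.73 on the log2 scale in knockout back versus control tail (SE 0.50; adjusted p = 0.049), a call that 6 of 17 other settings kept. Differences of -2.08 (adjusted p = 0.070) against knockout tail and -0.65 (adjusted p = 1) for knockout tail versus control tail did not pass. Its share of Aldoa plus Aldoc per kilobase was 3.01%, 3.3% and 2.58% in control tail, then 0.87%, 1.33% and 1.55% in knockout tail, then 0.161%, 0.024% and 0.596% in knockout back, with the exact p at its smallest of 0.1 in each of the 3 comparisons (0.19 adjusted over 15).

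Tpi1 (chr6:124810586-124814296, minus strand) had 18046, 24953 and 19407 in control tail, then 24740, 25330 and 25499 in knockout tail, then 26120, 13224 and 37654 in knockout back. The knockout tail libraries lie close together and the back libraries span the whole range. Differences were 0.10, -0.09 and 0.01 (SE 0.28 each; adjusted p = 1, 0.88 and 0.99).

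The Gapdh row of the table holds a small part of the counts of its gene family: mouse Gapdh has many processed copies. Of the 100-base words of Gapdh transcripts, 53.1% also occur in other annotated genes, 86 of them. Those that share at least 1% of the words and have a row in the table number 52, called copies here. Identity to Gapdh was measured for Gapdh-ps15 only. A stretch of the coding sequence is shown beside that of Gapdh-ps15, a processed pseudogene on chromosome Y, to make plain how little separates them. Both are GENCODE vM21 transcripts, bases 373 to 462 and 133 to 222, and capitals mark the mismatches.
Gapdh: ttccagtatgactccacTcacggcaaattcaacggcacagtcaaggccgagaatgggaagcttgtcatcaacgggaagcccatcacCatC
Gapdh-ps15: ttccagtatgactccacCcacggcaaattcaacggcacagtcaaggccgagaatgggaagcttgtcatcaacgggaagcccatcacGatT
Over 1002 aligned bases the pair has 5 mismatches (99.5% identity), 3 of them in these 90 bases. The Gapdh row (gene at chr6:125161715-125166467, minus strand) had 2825, 4981 and 3224 in control tail, then 3307, 3072 and 2138 in knockout tail, then 6327, 8138 and 2020 in knockout back. The sum with the 52 copies was 42690, 56195 and 44772 in control tail, then 55268, 56161 and 80236 in knockout tail, then 45196, 33624 and 74213 in knockout back. The row thus held 2.66% to 24.2% of the sum: 2.66% and 2.72% in the 2 libraries of the smaller set, and 5.47% to 24.2% in the other 7. In the sum, the 2 libraries of the smaller set are the highest of all 9; in the row they are the lowest.

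**Figure D4:**
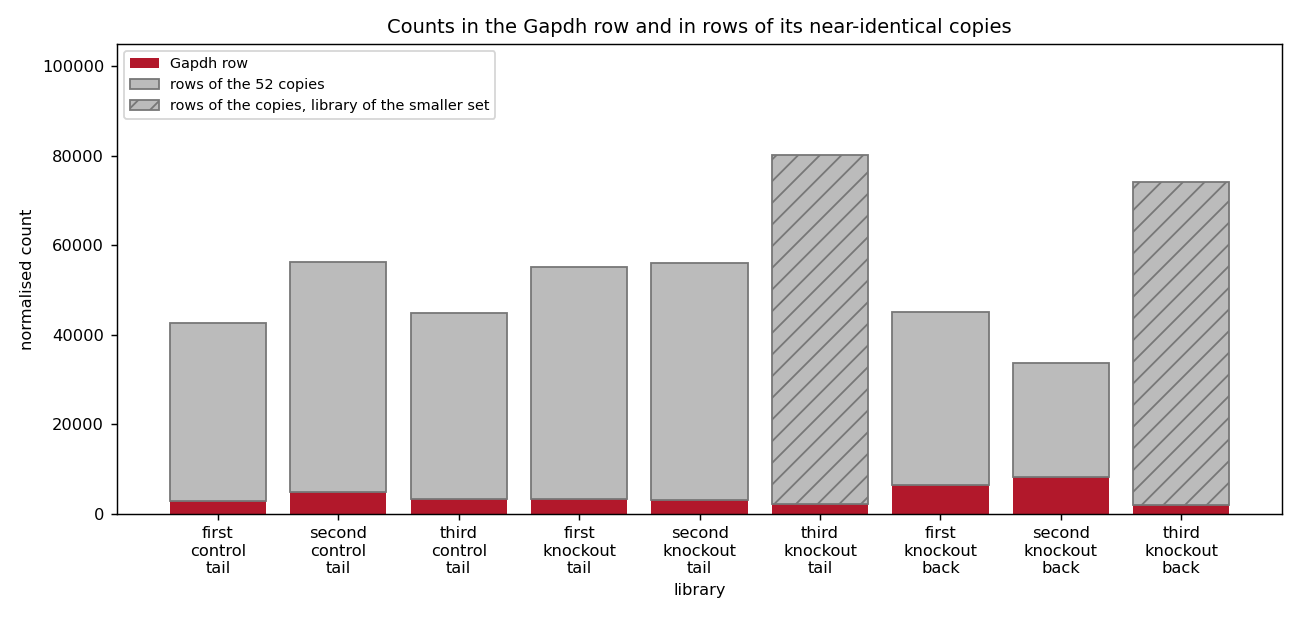
Normalised count in the Gapdh row and in the rows of its 52 copies, stacked, in each library. Hatching marks the third library of each knockout group. The row is 2.66% to 24.2% of each bar, and the 2 hatched bars are the tallest, at 80236 and 74213 counts.

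On the row alone Gapdh differed by -0.01 (SE 0.32), 0.69 (SE 0.32) and 0.67 (SE 0.32) in knockout tail versus control tail, knockout back versus knockout tail and knockout back versus control tail, with adjusted p of 1, 0.26 and 0.23. In limma-voom on recovered counts the row alone gave -0.30, 0.65 and 0.35, and with copies summed 0.37, -0.32 and 0.05. Summing thus turned the sign of the first and second, and none passed either way. Of the 52 copies, 34 were higher in both libraries of the smaller set than in all other 7, against 10.3% of all genes, and none was lower in both. Gapdh-ps15 had 2360 and 2024 counts in those 2 libraries and 84 to 144 in the other 7. Gapdh-ps16, a RefSeq pseudogene that is not among the 52 copies or in their sum, had 1793 and 1505 there and 6 to 14 elsewhere. After the alignment between sets the deposited values of Gapdh-ps15 lie between 10.04 and 10.29 in all 9 libraries. How the reads came to be shared between the rows was not tested.

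Phosphoglycerate kinase 1 makes the first ATP of the pathway. Pgk1 (chrX:106187100-106203699, plus strand) had 14859, 23096 and 23239 in control tail, then 15492, 15033 and 16777 in knockout tail, then 15773, 5827 and 20070 in knockout back. The groups overlap, and the second knockout back library is the lowest by far. Differences were -0.43 (SE 0.37), -0.34 (SE 0.37) and -0.77 (SE 0.37), with adjusted p of 1, 0.63 and 0.22; without the second knockout back library the second was 0.12. Copies share 67% of the 100-base words of Pgk1, but the Pgk1 row still held 94.6% to 98% of the sum with its 2 copies in the table. Pgam1, the mutase after it, had 26757, 31503 and 20926 in control tail, then 30212, 29552 and 21038 in knockout tail, then 27626, 12911 and 23702 in knockout back, again lowest in the second back library, with adjusted p of 0.50 or more in every comparison.

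Enolase had the largest negative difference of the members in both comparisons with knockout back. Eno1 (chr4:150236721-150248879, plus strand) had 138203, 185427 and 190660 in control tail, then 162987, 158508 and 140833 in knockout tail, then 88643, 61991 and 112198 in knockout back. All 3 back libraries lie below all 6 tail libraries, within the larger set (88643 and 61991 against 138203 to 190660) as within the smaller set (112198 against 140833). Means were 171430 ± 28894, 154109 ± 11714 and 87611 ± 25119 (SD, n = 3). The difference was -0.85 (SE 0.22; adjusted p = 0.087) from knockout tail and -0.97 (SE 0.22; adjusted p = 0.056) from control tail, and neither passed. Other settings gave adjusted p of 0.019 to 0.59 for the first, 3 of 17 past the threshold, and 0.0099 to 0.56 for the second, 4 of 17. Control and knockout tail differed by -0.12 (SE 0.22; adjusted p = 1).

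Eno1 shares 39.5% of its 100-base words with other genes, chiefly Eno1b, a copy with 99.5% identity over 1652 bases. Eno1b had 24047, 33206 and 30473 in control tail, then 26143, 26004 and 9580 in knockout tail, then 1019, 9747 and 6929 in knockout back. With Eno1b and Gm4735 added, the sum was 173901, 230393 and 234889 in control tail, then 200631, 195027 and 156283 in knockout tail, then 96977, 74869 and 123164 in knockout back. The Eno1 row held 79.5% to 91.4% of it. In limma-voom on recovered counts the difference from control tail was -0.97 (adjusted p = 0.056) for the row and -1.11 (adjusted p = 0.036) for the sum, and from knockout tail -0.84 (adjusted p = 0.13) and -0.93 (adjusted p = 0.098). The sum was chosen after seeing the data. Eno2, the neuronal enolase, was scarce, with 49, 201 and 368 in control tail, then 795, 588 and 534 in knockout tail, then 1285, 0 and 711 in knockout back. Each knockout tail library exceeds each control library for Eno2 in counts, but not on the deposited scale (9.65 to 10.56 against 8.88 to 9.90). The difference was 0.74 (SE 0.67; adjusted p = 1).

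Pyruvate kinase, the last ATP-forming step, was the steadiest member, its highest library 1.60 times its lowest. Pkm (chr9:59656368-59679375, plus strand) had 92406, 105358 and 93965 in control tail, then 113561, 110810 and 114320 in knockout tail, then 86322, 71407 and 95719 in knockout back. In these counts knockout tail lies above both other groups in every library. On the deposited scale knockout tail (16.74 to 16.87) overlaps control tail (16.57 to 16.76), and knockout back (16.20 to 16.49) lies below both. The differences were 0.17 (SE 0.12; adjusted p = 1) from control tail to knockout tail, -0.43 (SE 0.12; 95% interval -0.69 to -0.16; adjusted p = 0.096) from knockout tail to knockout back, and -0.25 (SE 0.12; adjusted p = 0.21) from control tail to knockout back. Pkm and Eno1 were the 2 members with all back counts below all knockout tail counts, which 10.4% of all genes had; Pfkl was the 1 member above, beside 4.55% of all genes. Against control tail Pfkl was again the 1 member above, beside 7.41% of all genes, and Eno1 the 1 below, beside 15.6%. The counts are per gene and do not separate the M1 and M2 splice forms of Pkm.

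Ldha (chr7:46841475-46855627, plus strand) turns pyruvate into lactate. It had 83852, 111074 and 64771 in control tail, then 74653, 85013 and 63842 in knockout tail, then 57994, 66341 and 54292 in knockout back. In these counts the groups overlap, with 2 of the 3 back libraries below every tail library. On the deposited scale knockout back (15.65 to 15.93) lies below knockout tail (16.01 to 16.20) and overlaps control tail (15.81 to 16.58). Differences were -0.07 (SE 0.19), -0.32 (SE 0.19) and -0.38 (SE 0.19), with adjusted p of 1, 0.37 and 0.24. Ldhb, the heart-type subunit, had 16342 to 21892 in control tail, 14872 to 22299 in knockout tail and 15880 to 24459 in knockout back. Ldha was 56.3% to 61.9% of lactate dehydrogenase per kilobase in knockout back, 61.4% to 69.9% in knockout tail and 62.3% to 70.9% in control tail. The back shares lie below the control shares and overlap those of knockout tail (exact p = 0.1 and 0.3, or 0.19 and 0.45 adjusted over 15).

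Of the lactate carriers, Slc16a3, the MCT4 exporter of glycolytic cells, differed between tail and back. Slc16a3 had 438, 945 and 1388 in control tail, then 455, 150 and 591 in knockout tail, then 4334, 4672 and 4644 in knockout back. The back libraries lie close together and above every tail library. Their mean was 4550 ± 187 against 399 ± 226 (SD, n = 3) in knockout tail, 11.42 times as high. Slc16a3 rose by 2.68 (SE 0.39; 95% interval 1.79 to 3.56; adjusted p = 0.025) against knockout tail, a call kept in 5 of 17 other settings with an adjusted p of 0.013 to 0.25. Against control tail it differed by 1.76 (SE 0.39; adjusted p = 0.055). Slc16a1, the MCT1 carrier, had 1028, 904 and 900, then 1140, 1767 and 3223, then 8422, 332 and 5177 in control tail, knockout tail and knockout back; it was low in the second back library and did not pass (adjusted p = 0.74 against knockout tail). The higher myeloid and Schwann sums of knockout back stand beside Slc16a3 as beside Pfkl, and their part was not tested.

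Neighbouring pathways were read from lists chosen with earlier results of these data known. None of their genes passed in knockout tail versus control tail. Of all genes, 0.411% were called higher and 1.09% lower in knockout back versus knockout tail, with a median difference of -0.18. Versus control tail it was 0.387% higher and 0.614% lower, with a median of -0.23. Of 21 other glycolysis enzymes and glucose carriers in the table, 1 fell (Slc2a6) in knockout back versus knockout tail and 2 fell (Slc2a6 and Aldoc) versus control tail, and none rose; the median difference was -0.47 and -0.30. Among 17 genes of lactate and pyruvate transport and pyruvate dehydrogenase, 1 rose (Slc16a3) against knockout tail, and the median was 0.19. Of 26 regulators of flux, 1 rose: Txnip, which restrains glucose uptake, with 3275, 2091 and 1080 in control tail, then 1494, 2323 and 3393 in knockout tail, then 5443, 8470 and 33428 in knockout back (2.13, SE 0.42; adjusted p = 0.05 when rounded, just past the threshold). Every back library exceeds every tail library, and the third stands far above the rest. Hif1a, the hypoxia-inducible factor, was not called in any comparison and differed by 0.96 (adjusted p = 1) in knockout tail versus control tail.

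Among 16 hypoxia targets outside glycolysis 1 rose against knockout tail: Plin2, a lipid droplet coat protein, with 9958, 11538 and 12666 in control tail, then 9935, 7524 and 7399 in knockout tail, then 42009, 39264 and 13590 in knockout back. Its difference was 1.72 (SE 0.28; adjusted p = 0.035), and the third back library lies close to the controls. Cidec, the 1 adipocyte marker of 4 in the table, had 1414, 206 and 223 counts in knockout back, 96 in the third control library and 0 in the other 5 tail libraries. The myeloid and Schwann sums of knockout back were higher too, as given above, and the part of any of these in the Plin2, Txnip, H6pd, Slc2a6, Aldoc and Eno1 differences was not tested. The list's median was 0.38 in that comparison, beside -0.18 over all genes. In the pentose phosphate pathway (8 genes) 1 fell: H6pd, its endoplasmic reticulum enzyme, with 522, 253 and 127 in knockout tail, then 9, 5 and 0 in knockout back (-1.29, SE 0.23; adjusted p = 0.039), beside 191, 119 and 261 in control tail. Other settings kept the call of Txnip in 3 of 17, of Plin2 in 6 of 17 and of H6pd in 3 of 16. The 5 genes of gluconeogenesis and the 18 of the tricarboxylic acid cycle had none called in any comparison. Their medians were -0.51 and -0.32 against knockout tail, beside -0.18 over all genes.

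**Figure D5:**
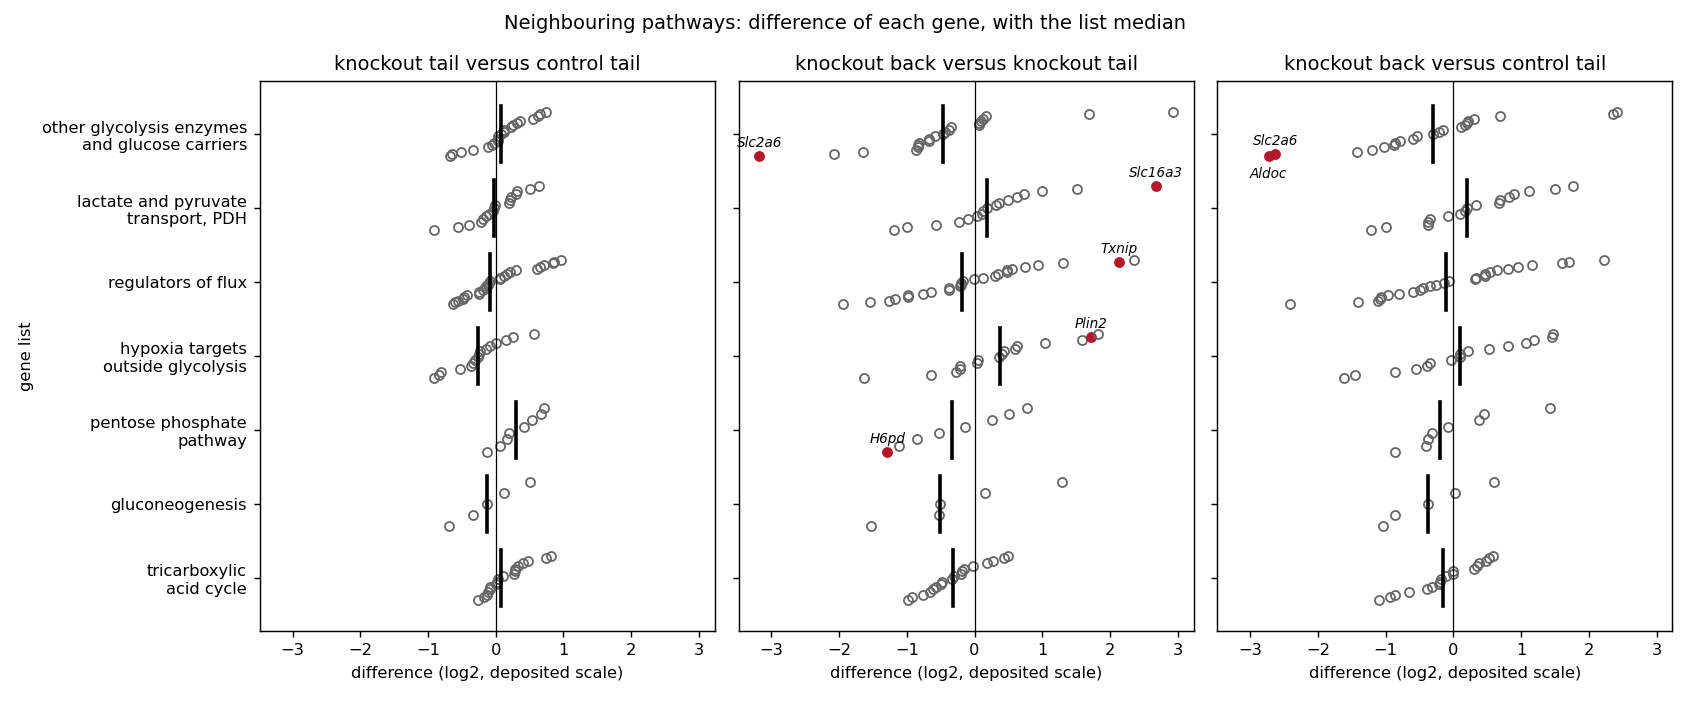
Difference of each gene of 7 related lists in the 3 comparisons on the deposited log2 scale; each symbol is 1 gene, filled and named where its adjusted p was under 0.05, and the bar is the list median. Genes called lie in the 2 comparisons with knockout back, from Slc2a6 at -3.18 to Slc16a3 at 2.68.

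Across the 9 libraries the members ran partly with and partly against each other. Of the 45 pairs 22 had a positive Pearson r over the 9 libraries, with a median of -0.01 and a range of -0.85 to 0.85; this describes deposited values, which share library composition and the alignment between sets. Eno1 and Pkm were most alike (r = 0.85, Spearman rho = 0.78), and Pgk1 was most like Eno1 (r = 0.83). Pfkl was least like Pkm (r = -0.85) and Eno1 (r = -0.83). Hk2 and Slc2a1, the entry steps, ran against each other (r = -0.72). Outside the members, Ywhaq, a 14-3-3 protein, was most like their mean standardised profile (r = 0.98), and the next 5 genes, Gm2606, Gm5559, Gm14760, Gm12070 and Gm7336 (r = 0.89 to 0.94), are all among the 52 copies of Gapdh, whose own row enters that profile.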

How the data were processed

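RNA of sorted melanocytes (9 libraries, 3 groups of 3) was extracted with Trizol, made into libraries with a SMART-Seq v4 kit and sequenced as read pairs on a NovaSeq instrument, per the labels' protocols. The authors deposited 1 table of log2 values, and the submitters' processing notes name DESeq2 and GRCm38; aligner, counter and strandedness were not given in the sources used here. Values followed a variance-stabilising curve, 7.98 at 0 counts. For each gene, averages over 2 library sets (the third knockout tail with the third knockout back, and the other 7) were equal to within 7.14e-09 (next best of 255 splits: 1.50), so a shift between these sets (median absolute size 0.45) had been removed. Undoing both gave whole counts for 16294 genes (tolerance 0.004); Dct, Ftl1, Gm22133, Pmel and Tyrp1 were not resolved. Normalised counts are these divided by size factors and do not contain the shift removal. Exon lengths and coordinates, counted from 1, are from GENCODE vM21 on GRCm38, matched by symbol for 15400 of 16299 genes.

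Groups follow the labels. The test was limma 3.58.1 (R 4.3.3) (trend, robust moderation) fitted to the deposited table with all 9 libraries, group as the only term, with Benjamini-Hochberg over all genes. It leaves 6 residual degrees of freedom. The shift removed from each gene before deposit is not counted as a fitted term there, so its SE and p-values may be too small. The fit with a second term for library set does count it. The values were already log2, so no pseudocount was added. Low-count changes are understated on this scale. The fits and the count recovery were tested on simulated data. Alternatives changed the model terms, the values tested, moderation, the filter on low values, scaling and the libraries used. Summing copies (sharing at least 1% of 100-base words) and using the 7 larger-set libraries alone were chosen after seeing the data. No 2 libraries were identical. The labels do not say that a replicate number marks a shared animal or batch. Because the shift removal ties the third knockout tail and back libraries, deviations of same-numbered libraries from their group means were compared on recovered counts (log2 of normalised count + 1; 12886 genes with a mean of at least 100): the correlation was 0.22 for that pair and -0.18 to 0.08 for the other 8. Not every pair exceeded 0.1, so the numbers were not treated as pairs. Control and knockout libraries come from different mice, so only knockout tail and knockout back libraries could share an animal. Their correlations were 0.08, 0.05 and 0.22 for replicates 1, 2 and 3. The rule over all pairs does not decide whether these libraries share mice. In the pair at 0.22 a shared animal and the shared set cannot be told apart. Named genes are all members, every list gene called in any comparison, a fixed set of isoenzymes and carriers, and the 6 genes most like the members' mean profile; Hif1a was named after its values were seen. Members and lists were chosen with earlier results of these data known.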

Additional observations from a re-analysis of the deposited data

How the results depend on the processing

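Calls moved with the settings. Signs of the differences of Pfkl, Eno1, Aldoa, Pkm and Ldha in the 2 comparisons with knockout back did not, in any setting run. Genes called numbered 0 for knockout tail versus control tail, except 10 with a second term for library set. For knockout back versus knockout tail the 244 became 71 with the set term, 21 with the replicate block, 2 with only the 2 groups compared, 90 with a filter at the median level of 10.1, 1637 with the larger set only and 0 without the first and second back libraries; leaving out 1 library gave 3 to 1972. For knockout back versus control tail the 163 became 545 with the set term, 42 with the replicate block, 317 in limma-voom on recovered counts, 600 in limma-voom with the set, 318 in limma-voom with copies summed, 2371 with the larger set only, 471 without trend and robust moderation, 7 with only the 2 groups, 284 with the filter, 579 after quantile normalisation and 0 without the first and second back libraries; leaving out 1 library gave 0 to 2804. Both highest counts came without the third knockout back library. The cause of these changes was not tested.

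Members called against knockout tail numbered 1, beside 244 of 16299 genes. They were 0 with the set term (71 of all genes), the replicate block (21) or only the 2 groups compared (2). In limma-voom with or without copies summed they were also 0, beside 168 genes in each. They were 2 with the larger set only, beside 1637 genes, or after quantile normalisation, beside 207. Leaving out 1 library gave 0 to 2, beside 3 to 1972 genes. Against control tail the number was 0, beside 163 of all genes. It became 1 with the set term (545 of all genes), in limma-voom with the set (600) or with copies summed (318). It was also 1 without trend and robust moderation (471) and with the filter (284 of 8150). It became 2 after quantile normalisation (579) and 3 with the larger set only (2371). Leaving out 1 library gave 0 to 3, beside 0 to 2804 genes. The numbers of replicates were not shown to pair the libraries, and shared mice for knockout tail and back were not excluded. The replicate block is therefore given only as these counts.

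Leaving out any 1 library of the groups compared ended the calls of Pfkl, Slc16a3, Txnip, Plin2 and H6pd against knockout tail and of Aldoc and Slc2a6 against control tail, except the third knockout back library, without which they held; Slc2a6 against knockout tail held without the second or the third back library. These fits test fewer samples.

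Signs turned for small differences. In limma-voom, with or without copies summed, Slc2a1 was 0.01 in knockout tail versus control tail and 0.15 in knockout back versus control tail, and Pfkl was 0.16 in knockout tail versus control tail; with copies summed Gapdh was 0.37 there and -0.32 in knockout back versus knockout tail. With the larger set only, Slc2a1 was -0.20 against knockout tail and Tpi1 -0.14 against control tail. After quantile normalisation Slc2a1 was -0.04 against knockout tail, Tpi1 -0.03 against control tail, and Gapdh 0.00 and Ldha 0.04 in knockout tail versus control tail; with the set term Gapdh was 0.04. Without the first and second back libraries Slc2a1 was 0.08 against control tail, and Hk2, Tpi1 and Pgk1 were -0.39, 0.21 and 0.15 against knockout tail. Leaving out 1 library gave, for knockout tail versus control tail, -0.28 to 0.03 (Pfkl), -0.16 to 0.20 (Gapdh) and -0.26 to 0.13 (Ldha); for knockout back versus knockout tail, -0.13 to 0.23 (Slc2a1), -0.03 to 0.51 (Hk2), -0.27 to 0.22 (Tpi1) and -0.59 to 0.12 (Pgk1); and for knockout back versus control tail, -0.15 to 0.32 (Tpi1). Libraries hold 45.3 M to 67 M counts, and each member had at least 1673 normalised counts in every library. H6pd and Slc2a6 were near 0 in knockout back, whose libraries hold 47.4 M to 56.7 M counts. The third knockout tail library holds 45.3 M, with 1686 normalised counts of Slc2a6. The part of depth in these low values was not tested.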
